A study of Homo sapiens with 8 samples.

Results

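The genes described here are 9 extracellular matrix proteases, their inhibitors and the urokinase system: the matrix metalloproteases MMP2, MMP7, MMP9 and MMP14, the tissue inhibitors TIMP1, TIMP2 and TIMP3, and the urokinase plasminogen activator PLAU with its receptor PLAUR. They were taken by name, with earlier results of these data known, and all 9 were found among the 20339 genes of the count table. Matrix metalloproteases are zinc enzymes that cleave collagens, laminins and other proteins of the matrix and cell surface, and most are secreted as proenzymes that another protease must activate. TIMPs bind the active metalloproteases and block them, and a complex of MMP14 with TIMP2 at the cell surface also captures pro-MMP2 so that a free MMP14 can activate it. Urokinase bound to its receptor turns plasminogen into plasmin, which degrades fibrin and can activate several pro-MMPs. In ovarian cancer these enzymes are studied because tumor cells shed into ascites have to cross the mesothelium and its matrix to implant on the peritoneum.

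RNA-seq was performed on 2 ovarian carcinoma cell lines in which the matrix Gla protein MGP had been manipulated, each grown as adherent bulk cells or as spheres enriched in ovarian cancer stem cells (OCSC). OVCAR3-MGPKO cells were knocked out for MGP by CRISPR-Cas9 and clones were isolated, and OVCAR3-CTR were their controls. COV318-MGP cells expressed MGP from a lentiviral vector, and COV318-CTR carried the empty vector. Each of the 4 populations was sequenced in bulk and in OCSC culture, giving 8 libraries with 1 library per condition. The OVCAR3 cells were at passage 4 and the COV318 cells at passage 18. Bulk OVCAR3 were kept in RPMI with serum and insulin and bulk COV318 in DMEM with serum, whereas OCSC grew in suspension in serum-free medium with growth factors, so that culture and medium cannot be told apart. The labels give ascites as the tissue and epithelial cell as the cell type of every library.

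The total count on genes ranged from 12294591 to 37393919 per library. MGP itself had 40393 and 28694 counts in COV318-MGP bulk and OCSC against 1 and 0 in COV318-CTR. In the 4 OVCAR3 libraries it had at most 2 counts, so its RNA does not check which of these libraries carry the knockout, and the names used below are those of the labels. The COV318-MGP libraries stood apart from the rest, with a correlation of log2 levels across genes of 0.747 to 0.757 with COV318-CTR, below that of 0.771 to 0.786 with OVCAR3 (genes are not independent replicates). Of 13 epithelial and ovarian carcinoma markers, all 13 had more than 3 counts in each of the other 6 libraries, where they summed to 1056 to 13586 CPM (each library scaled to the same total), but only 5 of 13 did in COV318-MGP bulk and 6 of 13 in OCSC, with sums of 123 and 448 CPM. KRT7, CLDN3, PAX8 and SOX17 were at 0 in both. Other markers of the list were kept. KRT8 had 556 and 983 counts in COV318-MGP bulk and OCSC, against 1197 and 106 in COV318-CTR. KRT18 had 2573 and 4810 against 36058 and 2396, and CDH1 417 and 99 against 505 and 248. The 5 mesothelial markers in the table summed to 462 and 285 CPM in COV318-CTR bulk and OCSC, 27.6 and 13.8 CPM in COV318-MGP and 8.52 to 24.3 CPM in OVCAR3. Like MMP7 and MMP14, this sum was thus highest in COV318-CTR. UPK3B had 13158 and 1855 counts there and 1 in each COV318-MGP library, where LRRN4 and BNC1 had at most 4. PDPN, however, kept 815 and 181 counts in COV318-MGP bulk and OCSC, against 2225 and 202 in COV318-CTR and 0 in OVCAR3. The neurofilament genes NEFL and NEFM, from a list of 7 genes of the HEK293 lineage, had 490 to 2564 counts in COV318-MGP and at most 1 elsewhere. That whole list summed to 286 and 241 CPM in COV318-MGP, 637 and 354 CPM in COV318-CTR and 15.0 to 32.7 CPM in OVCAR3. The part of this difference in cell identity in the results below was not tested, and every value of COV318-MGP is a value of these 2 libraries. In bulk RNA, fewer cells making a transcript and less of it per cell cannot be told apart.

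Levels are given as normalized counts, that is counts divided by a size factor per library, and the log2 fold change (log2FC) is the log2 ratio of 2 libraries after adding 1 to each normalized count. The 95% interval around a log2FC is an exact interval for the ratio of the 2 counts and covers counting error only. With 1 library per condition a difference between 2 single libraries could not be tested against the spread between cultures, and a p-value is given only for OCSC against bulk over the 4 populations. Elsewhere a gene is counted as higher or lower when its log2FC is at least 1 in size. A fold is the ratio of the 2 normalized counts without the added 1, so at low counts it is larger than the log2FC beside it gives. A count of 3 was used as the floor, and a fold against 0 counts is a lower bound computed against it.

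The promoters of 3 genes are printed, those with the largest log2FC between COV318-MGP and COV318-CTR in bulk: MMP7 and MMP14, which were high in COV318-CTR and low in COV318-MGP, and TIMP1, which had its highest levels in COV318-MGP. Each is the 250 bases before the RefSeq start on GRCh38.p14, from 5′ to 3′ on the gene's strand, at chr11:102530748-102530997 (minus) for MMP7, chr14:22836335-22836584 (plus) for MMP14 and chrX:47582186-47582435 (plus) for TIMP1. Capitals mark matches on either strand to the AP-1 letters TGANTCA. They also mark matches to the GC box, spelled GGGCGG. The TATA box, spelled TATAAA, is marked in the same way.
MMP7: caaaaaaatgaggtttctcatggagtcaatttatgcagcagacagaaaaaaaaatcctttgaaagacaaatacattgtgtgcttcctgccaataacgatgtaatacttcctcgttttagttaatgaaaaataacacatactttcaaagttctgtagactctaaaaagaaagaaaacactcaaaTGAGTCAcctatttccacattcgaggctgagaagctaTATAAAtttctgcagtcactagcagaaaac
MMP14: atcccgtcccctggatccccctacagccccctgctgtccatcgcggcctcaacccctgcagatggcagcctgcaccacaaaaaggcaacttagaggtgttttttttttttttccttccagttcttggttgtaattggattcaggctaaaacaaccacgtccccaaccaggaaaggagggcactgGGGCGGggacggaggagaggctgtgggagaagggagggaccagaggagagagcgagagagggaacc
TIMP1: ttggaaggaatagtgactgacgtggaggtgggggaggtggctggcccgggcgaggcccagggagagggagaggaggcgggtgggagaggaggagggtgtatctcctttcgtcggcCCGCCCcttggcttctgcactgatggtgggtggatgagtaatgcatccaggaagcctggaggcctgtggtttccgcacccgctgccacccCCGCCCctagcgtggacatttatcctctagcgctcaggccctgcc

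The MMP7 promoter was rich in A and T, with a GC content of 33.6%, and held an AP-1 match at -67 to -61 and a TATA box at -30 to -25, counted back from the start. Neither occurred in the promoters of MMP14 (56.8% GC) and TIMP1 (64.8% GC), which held 1 and 2 GC boxes. The letters CTTTGA, read by TCF factors, were found at -194 to -189 and, on the other strand, at -108 to -103 of MMP7. Of 35116 promoters of this length, 6.57% held the AP-1 letters, 42.6% the GC box, 10.7% the TATA box and 11.2% the TCF letters. RefSeq promoters were matched for 6 of the 9 genes, the others being MMP2, MMP9 and TIMP2. Among the 3 not printed, TIMP3 (72.4% GC) held 5 GC boxes, PLAUR 1 AP-1 match at -186 to -180, and PLAU none of these letters. The stretches read for PLAU (chr10:73910360-73910609) and PLAUR (chr19:43670170-43670419) lie inside the gene spans given below. They precede 1 RefSeq start of each gene, and other starts were not read. The letters TGACGTCA (CRE) and GACCACCCA (GLI), found in 1.65% and 0.199% of all promoters, were in none of the 6. A match is a run of letters, not a shown site of binding.

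**Figure D1:**
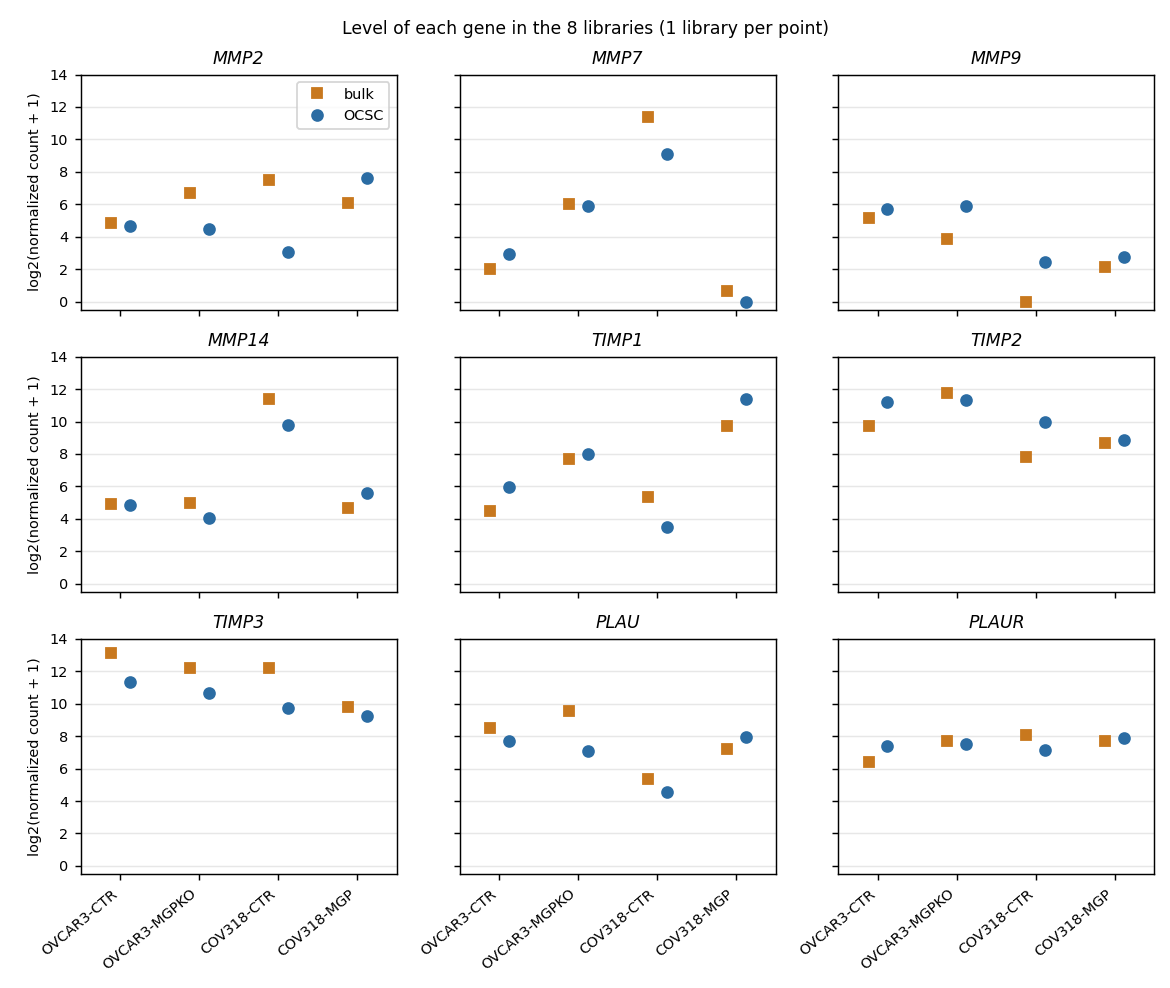
Level of each of the 9 genes in the 8 libraries, as log2(normalized count + 1), with squares for bulk and circles for OCSC and 1 library per point. MMP7 and MMP14 are high only in COV318-CTR, TIMP1 is highest in COV318-MGP, MMP9 is higher in the 4 OVCAR3 libraries than in the 4 COV318 libraries, and PLAUR varies least.

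Among the metalloproteases, MMP7 differed most between libraries. MMP7, or matrilysin, is a small metalloprotease without a hemopexin domain that epithelial cells secrete, and its gene spans 102520508 to 102530750 of chromosome 11 (minus strand; hg38, GENCODE 44). Its normalized count was 2710.3 in COV318-CTR bulk, 539 in COV318-CTR OCSC, 63.2 in OVCAR3-MGPKO bulk, 58.6 in OVCAR3-MGPKO OCSC, 6.53 in OVCAR3-CTR OCSC and 3.08 in OVCAR3-CTR bulk. In COV318-MGP it rested on 1 count in bulk and was at 0 in OCSC, where 3 counts correspond to 0.226 CPM. The COV318-CTR libraries were thus above all others and the 2 COV318-MGP libraries at the floor. In OVCAR3 the libraries labelled MGPKO were higher than their controls in both cultures, with a log2FC of 3.97 (interval 2.44 to 7.44) in bulk, from 2 to 55 counts, and of 2.98 (2.04 to 4.53) in OCSC, from 7 to 67 counts. In COV318 the direction was the other way, with a log2FC of -10.77 (-17.57 to -9.79) in bulk and at least 126-fold lower in OCSC, where 363 counts stood against 0. MMP7 was the only member opposite in the 2 lines in both cultures.

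MMP14, the membrane-anchored collagenase that activates pro-MMP2, spans 22836560 to 22849041 of chromosome 14 (plus strand). The normalized count of MMP14 was 2660.2 in COV318-CTR bulk and 879.8 in COV318-CTR OCSC. In COV318-MGP it was 24.7 in bulk and 47.2 in OCSC, and in OVCAR3 it ranged from 15.7 to 31.0. The COV318-MGP libraries therefore lay in or near the range of OVCAR3, and in the order of the 8 libraries none of the 5 neighbouring pairs below COV318-CTR differed beyond counting error, although COV318-MGP was higher in OCSC than in bulk by a log2FC of 0.91 (0.24 to 1.61). The fold between COV318-CTR and COV318-MGP was 107 in bulk (log2FC -6.69, interval -7.21 to -6.33) and 18.6 in OCSC (log2FC -4.19, -4.77 to -3.71). In OVCAR3 the log2FC of MGPKO against control was 0.08 (-0.82 to 1.01) in bulk and -0.79 (-1.76 to 0.06) in OCSC, intervals that hold 0 and rest on 18 to 30 counts.

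MMP2, the gelatinase that MMP14 activates, spans 55389700 to 55506691 of chromosome 16 (plus strand). For MMP2 the normalized count was 27.8, 24.3, 101 and 21.0 in OVCAR3-CTR bulk, OVCAR3-CTR OCSC, OVCAR3-MGPKO bulk and OVCAR3-MGPKO OCSC. In COV318-CTR it was 177 in bulk and 7.43 in OCSC, and in COV318-MGP 66.0 in bulk and 193 in OCSC. Its higher values thus occurred in 1 culture of each of 3 populations and not in the same one: bulk for OVCAR3-MGPKO and COV318-CTR, and OCSC for COV318-MGP. In OVCAR3 bulk the MGPKO library was higher, with a log2FC of 1.83 (1.12 to 2.68), whereas in OCSC the log2FC was -0.20 (-1.07 to 0.65). In COV318 the log2FC was -1.41 (-1.74 to -1.12) in bulk and 4.53 (3.44 to 6.35) in OCSC, the latter against 5 counts in COV318-CTR OCSC.

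MMP9, the other gelatinase, spans 46008908 to 46016561 of chromosome 20 (plus strand). Its counts were low everywhere: 22 and 54 in OVCAR3-CTR bulk and OCSC, 12 and 67 in OVCAR3-MGPKO, 0 and 3 in COV318-CTR, and 6 and 4 in COV318-MGP. It was the only member whose normalized counts did not overlap between the 4 OVCAR3 libraries (13.8 to 58.6) and the 4 COV318 libraries (0 to 5.73), which held for 31.5% of all genes. The 2 libraries next to this gap, OVCAR3-MGPKO bulk and COV318-MGP OCSC, had 12 and 4 counts, and the interval of their ratio (-0.45 to 3.36 as log2) holds 0. In OVCAR3 bulk the log2FC of MGPKO against control was -1.24 (-2.45 to -0.22), and with a pseudocount of 10 it was -0.88 and no longer counted. In COV318 bulk COV318-MGP held at least 2.04-fold more MMP9, on 6 counts against 0, and it was not counted with a pseudocount of 5 or 10. MMP9 shares 430 exon bases with the antisense gene SLC12A5-AS1, and whether the counting used strand is not given in the sources used here, so reads of the pair cannot be told apart.

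Among the inhibitors, TIMP1 was the only member counted as higher in all 4 comparisons of MGP-manipulated with control cells, a pattern shared by 1.26% of all genes. TIMP1, a secreted inhibitor of most metalloproteases that also binds pro-MMP9, lies on the plus strand of the X chromosome from 47582408 to 47586789, within the span of SYN1 but without shared exon bases. The normalized count of TIMP1 was 21.6, 60.7, 205 and 258 in OVCAR3-CTR bulk, OVCAR3-CTR OCSC, OVCAR3-MGPKO bulk and OVCAR3-MGPKO OCSC. In COV318-CTR it was 39.3 in bulk and 10.4 in OCSC, and in COV318-MGP 828 in bulk and 2647 in OCSC. In each line and culture the manipulated library was thus above its control, the pattern whose share of all genes is given above. The log2FC was 3.19 (2.46 to 4.14) in OVCAR3 bulk, 2.07 (1.70 to 2.50) in OVCAR3 OCSC, 4.36 (4.06 to 4.76) in COV318 bulk and 7.86 (6.95 to 9.31) in COV318 OCSC. The folds, taken without the added 1, were 9.47, 4.25, 21.1 and 254 in the same order, the last against 7 counts. By the labels MGP was removed in one line and added in the other, so TIMP1 was higher under both manipulations.

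TIMP2, which takes part in the activation of pro-MMP2 besides inhibiting metalloproteases, spans 78852977 to 78925387 of chromosome 17 (minus strand). The normalized count of TIMP2 was 851 in OVCAR3-CTR bulk and 2371, 3504 and 2602 in OVCAR3-CTR OCSC, OVCAR3-MGPKO bulk and OVCAR3-MGPKO OCSC. COV318-CTR had 228 in bulk and 1019 in OCSC. It was 411 in bulk and 471 in OCSC for COV318-MGP. The 2 control bulk libraries were the lowest of their lines. Against them the log2FC of the manipulated bulk library was 2.04 (1.91 to 2.17) in OVCAR3 and 0.84 (0.67 to 1.02) in COV318, the latter 1.14 with CPM scaling. In OCSC the log2FC was 0.13 (0.06 to 0.21) in OVCAR3 and -1.11 (-1.31 to -0.92) in COV318. TIMP2 shares 224 exon bases with CEP295NL on its strand and 367 with a long non-coding RNA on the other.

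TIMP3, the inhibitor that binds to the matrix itself and also blocks ADAM proteases, was abundant in every library. It spans 32801705 to 32863041 of chromosome 22 (plus strand), within the span of SYN3 and without shared exon bases. Its normalized count was 9039, 2580.1, 4627 and 1631 in OVCAR3-CTR bulk, OVCAR3-CTR OCSC, OVCAR3-MGPKO bulk and OVCAR3-MGPKO OCSC. In COV318-CTR it was 4665 in bulk and 847 in OCSC, and in COV318-MGP 899.8 in bulk and 604 in OCSC. Each manipulated library was below its control, and how many of all genes shared this was not counted. Each OCSC library was also below its bulk library, with intervals that leave out 0, as for 1.48% of all genes. The log2FC of manipulated against control was -0.97 (-1.02 to -0.91) and -0.66 (-0.75 to -0.58) in OVCAR3 bulk and OCSC, and -2.37 (-2.45 to -2.30) and -0.49 (-0.67 to -0.30) in COV318. Only the COV318 bulk difference reached the size of 1, with OVCAR3 bulk just under it.

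The urokinase gene PLAU spans 73909177 to 73917496 of chromosome 10 (plus strand) and shares 915 exon bases with C10orf55 on the opposite strand, so reads of the pair cannot be told apart without strand. The normalized count of PLAU was 364, 206, 734 and 136 in OVCAR3-CTR bulk, OVCAR3-CTR OCSC, OVCAR3-MGPKO bulk and OVCAR3-MGPKO OCSC. For COV318-CTR it was 40.4 in bulk and 22.3 in OCSC, and in COV318-MGP 149 in bulk and 248 in OCSC. The 2 COV318-CTR libraries were the lowest, and the 4 OVCAR3 libraries did not overlap with them, as 58.7% of all genes did not. The log2FC was 1.86 (1.51 to 2.27) in COV318 bulk and 3.42 (2.71 to 4.34) in COV318 OCSC, where the fold without the added 1 was 11.1. In OVCAR3 the MGPKO library was higher in bulk, at 1.01 (0.80 to 1.23), but not in OCSC, at -0.60 (-0.91 to -0.30). The value of 1.01 lies at the limit and was 0.99 with size factors of the pair alone or with a pseudocount of 10.

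PLAUR, the receptor that holds urokinase at the cell surface, spans 43646095 to 43670547 of chromosome 19 (minus strand). For PLAUR the normalized count was 83.3, 168, 206 and 185 in OVCAR3-CTR bulk, OVCAR3-CTR OCSC, OVCAR3-MGPKO bulk and OVCAR3-MGPKO OCSC. In COV318-CTR it was 265 in bulk and 141 in OCSC, and in COV318-MGP 203 in bulk and 238 in OCSC. OVCAR3-CTR bulk was the lowest and differed from its neighbour in the order of libraries beyond counting error, as the other 6 neighbouring pairs did not. COV318-CTR OCSC, next in order, was below COV318-CTR bulk, with a log2FC of -0.90 (-1.24 to -0.59). Against OVCAR3-CTR bulk, OVCAR3-MGPKO bulk had a log2FC of 1.29 (0.86 to 1.77). The other 3 comparisons of manipulated with control cells gave a log2FC under 1 in size, between -0.38 in COV318 bulk and 0.75 in COV318 OCSC.

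Counted over the 9 genes, MGP knockout in OVCAR3 came with 6 higher and 1 lower in bulk. Of all genes above the floor, 15.1% were higher and 9% lower by the same size, 24.1% in all. The higher genes were MMP2, MMP7, TIMP1, TIMP2, PLAU and PLAUR, and the lower one MMP9. The median log2FC of all 9 was 1.29, beside 0.03 over all genes above the floor. In OCSC only MMP7 and TIMP1 were counted, both higher, that is 2 of 9 against 14.9% of all genes (9.17% higher and 5.69% lower). The median of the 9 there was 0.13. Where a gene had to reach 50 normalized counts in either library, that share over all genes was 15.9% in bulk and 7.66% in OCSC. Enzymes, inhibitors and the urokinase pair were thus all represented among the genes higher in OVCAR3-MGPKO bulk, and PLAU, PLAUR, MMP2 and TIMP2 did not reach that size in OCSC. A difference between the cultures in this response was not tested.

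MGP expression in COV318 came with 3 higher (MMP9, TIMP1 and PLAU) and 4 lower genes (MMP2, MMP7, MMP14 and TIMP3) in bulk. Since 50.8% of all genes (24.5% higher and 26.3% lower) passed the same size in this comparison, a share of 7 in 9 is to be read against a wide change of the transcriptome. In OCSC 3 genes were higher (MMP2, TIMP1 and PLAU) and 3 lower (MMP7, MMP14 and TIMP2), against 54.2% of all genes (27% higher and 27.3% lower). The median log2FC of the 9 was -0.38 in bulk and 0.30 in OCSC, beside -0.04 and 0.00 over all genes above the floor. Of the genes counted in both cultures, MMP2 stood on opposite sides and MMP7, MMP14, TIMP1 and PLAU on the same side. TIMP2 (0.84 in bulk and -1.11 in OCSC) and PLAUR (-0.38 and 0.75) also had opposite signs with intervals that leave out 0, without reaching a size of 1 in both.

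**Figure D2:**
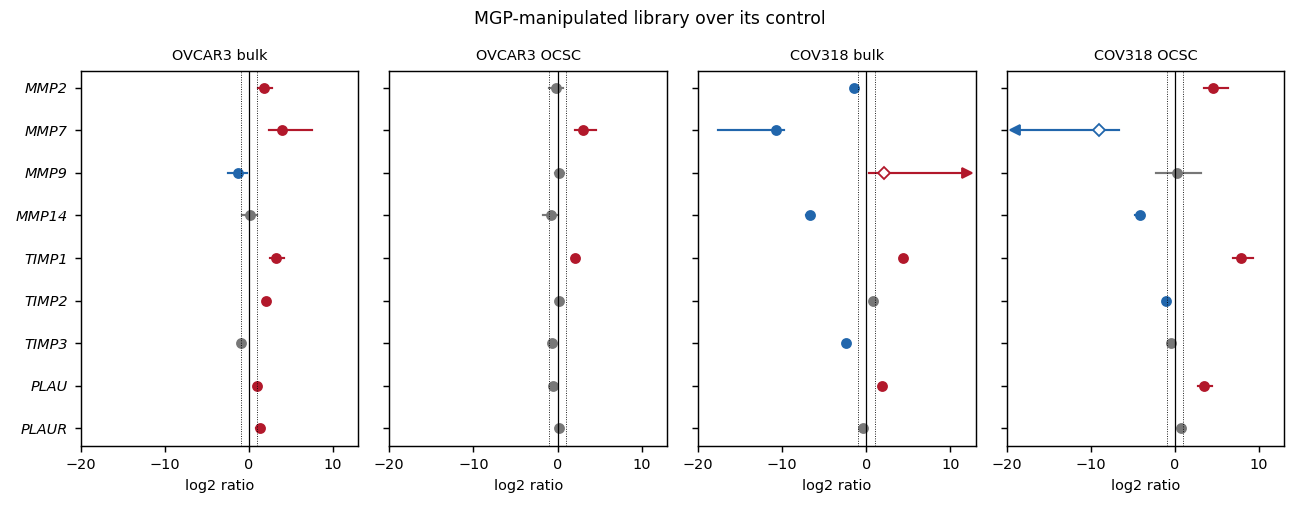
The log2FC of each gene in the MGP-manipulated library over its control, for OVCAR3 and COV318 in bulk and OCSC, with bars for the exact 95% interval of counting error. Red and blue mark a log2FC past 1 in size, dotted lines that threshold, and open diamonds with an arrow a comparison with 0 counts. TIMP1 lies to the right in all 4 panels, and MMP7 lies to the right in OVCAR3 and to the left in COV318.

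The study looked for genes that move in opposite directions when MGP is removed from OVCAR3 and when it is added to COV318. Among the 9 genes this held for MMP2, MMP7 and MMP9 in bulk, 3 of 9 against 7.98% of all genes, and for MMP7 in OCSC, 1 of 9 against 4.91%. The 3 bulk genes did not share a direction, since MMP2 and MMP7 were higher in OVCAR3-MGPKO and lower in COV318-MGP, as were 4.63% of all genes in bulk and 3% in OCSC, and MMP9 was the reverse. With a threshold of 1.5 or 2 the bulk count was 1, MMP7. The same direction in both lines was found for TIMP1 and PLAU in bulk, against 9.15% of all genes, and for TIMP1 in OCSC, against 5.91%. In both cases the shared direction was higher, which held for 5.61% of all genes in bulk and 3.57% in OCSC.

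The balance of enzymes and inhibitors can be compared between genes when levels are expressed per kb of exon. By this measure the summed level of the 4 metalloproteases was 1781 normalized counts per kb in COV318-CTR bulk and 426 in COV318-CTR OCSC, and between 21.0 and 61.3 in the other 6 libraries. The summed level of the 3 TIMPs varied less, from 356 in COV318-CTR OCSC to 2118 in OVCAR3-CTR bulk. The 3 TIMPs exceeded these 4 metalloproteases 75.4-fold in OVCAR3-CTR bulk, 27.7-fold in OVCAR3-CTR OCSC, 27.9-fold in OVCAR3-MGPKO bulk and 16.4-fold in OVCAR3-MGPKO OCSC. In COV318-CTR the ratio was below 1, at 0.606 in bulk and 0.834 in OCSC, and in COV318-MGP it was 39.7 and 37.9. These ratios hold for the 4 enzymes and not for the family. With the 12 other metalloproteases in the table added, the TIMP sum was 3.87 and 4.14 times the metalloprotease sum in bulk OVCAR3-CTR and OVCAR3-MGPKO, 0.952 and 1.44 times in their OCSC, 0.523 and 0.349 times in COV318-CTR bulk and OCSC, and 6.47 and 11.5 times in COV318-MGP. In OVCAR3 most of the added RNA was that of MMP15, a membrane-type enzyme named here after its values were seen, with 375, 497, 247 and 481 normalized counts per kb in OVCAR3-CTR bulk and OCSC and OVCAR3-MGPKO bulk and OCSC, and of MMP10, with 437 in OVCAR3-CTR OCSC. The RNA of the 4 enzymes was thus above that of the 3 inhibitors in COV318-CTR alone, whereas for all 16 this was also so in OVCAR3-CTR OCSC. RNA levels say nothing of how much of the enzyme was secreted or activated.

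**Figure D3:**
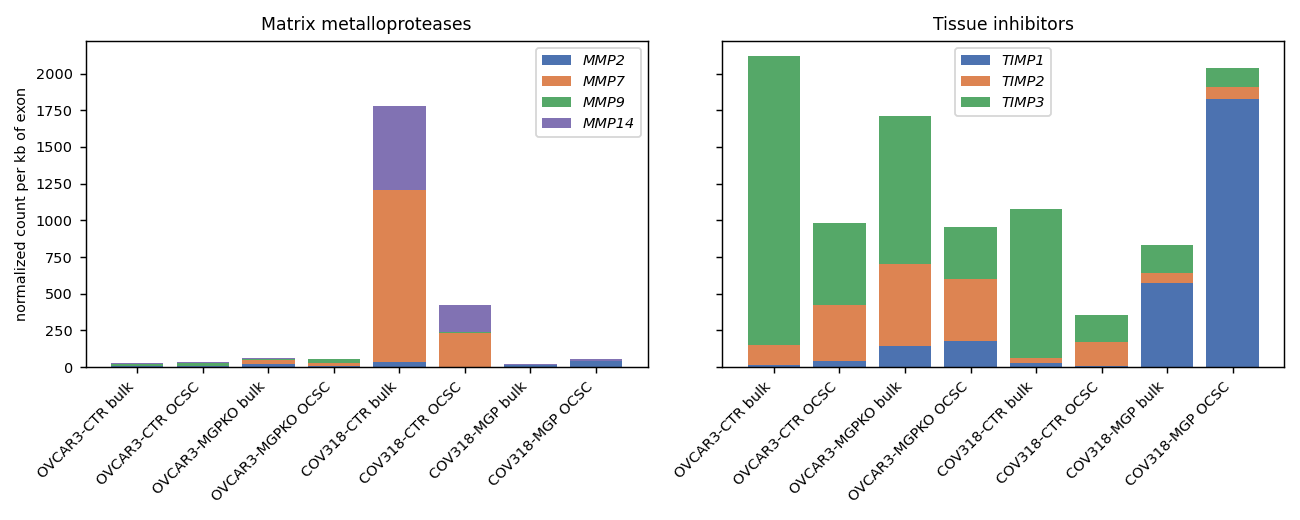
Summed level of the 4 metalloproteases (left) and the 3 tissue inhibitors (right) in each library, as normalized counts per kb of exon, with 1 color per gene. The metalloprotease sum is large only in the COV318-CTR libraries, where it consists mostly of MMP7 and MMP14, and TIMP1 makes up most of the inhibitor sum only in COV318-MGP.

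The makeup of the TIMP pool differed between populations. TIMP3 made up 92.8% of it per kb in OVCAR3-CTR bulk and 94.1% in COV318-CTR bulk. In OCSC of the same populations its share was 57.0% and 51.8%, with TIMP2 at 38.8% and 46.2%. TIMP1 made up 0.705% of the pool in OVCAR3-CTR bulk, 4.26% in OVCAR3-CTR OCSC, 8.26% in OVCAR3-MGPKO bulk and 18.7% in OVCAR3-MGPKO OCSC. In COV318 its share was 2.52% and 2.02% in the control libraries and 68.6% and 89.8% in COV318-MGP bulk and OCSC. In each of the 4 comparisons the TIMP1 share was thus larger, and the TIMP3 share smaller, in the manipulated library.

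Ratios of 2 genes within 1 library do not depend on the size factors. Per kb, MMP14 exceeded TIMP2 by 15.6-fold (14.2 to 17.3) in COV318-CTR bulk and by 1.16-fold (1.04 to 1.30) in COV318-CTR OCSC, and in the other 6 libraries the ratio was at most 0.135. MMP7 exceeded TIMP1 by 43.0-fold (34.1 to 54.9) and 32.3-fold (15.5 to 81.0) in the same 2 libraries, and elsewhere the ratio was at most 0.193. PLAU exceeded PLAUR by 6.61-fold in OVCAR3-CTR bulk and 5.40-fold in OVCAR3-MGPKO bulk, and the ratio was 1.86 and 1.11 in their OCSC. In COV318-CTR it was 0.230 in bulk and 0.239 in OCSC, and in COV318-MGP 1.11 and 1.58. The receptor RNA was therefore in excess of that of its ligand only in COV318-CTR, and in OVCAR3-MGPKO OCSC and COV318-MGP bulk the interval of the ratio held 1.

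In the order per kb within each library, TIMP3 came first in the bulk and OCSC libraries of OVCAR3-CTR and in OVCAR3-MGPKO bulk, with 1966, 561 and 1007 normalized counts per kb. TIMP2 came first in OVCAR3-MGPKO OCSC (419), MMP7 in both COV318-CTR libraries (1168 and 233) and TIMP1 in both COV318-MGP libraries (573 and 1831). Some neighbours in these orders did not differ beyond counting error, such as TIMP2 and PLAU in OVCAR3-CTR bulk (137 and 123), MMP14 and TIMP3 in COV318-CTR OCSC (190.3 and 184) and PLAU and PLAUR in COV318-MGP bulk (50.5 and 45.7). The 4 metalloproteases held the lowest ranks in OVCAR3 and COV318-MGP. In OVCAR3-CTR bulk, however, MMP9 (14.5) did not differ beyond counting error from TIMP1 (14.9), the gene ranked above it.

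Comparing OCSC with bulk cells of the same population, TIMP3 was the only member lower in all 4 with an interval that leaves out 0, which held for 1.48% of all genes. Its log2FC was -1.81 (-1.87 to -1.74) in OVCAR3-CTR, -1.50 (-1.58 to -1.42) in OVCAR3-MGPKO, -2.46 (-2.59 to -2.34) in COV318-CTR and -0.57 (-0.73 to -0.42) in COV318-MGP. Without COV318-MGP, TIMP3 and PLAU met this rule, against 4.45% of all genes. PLAU had a log2FC of -0.82 (-1.09 to -0.55) in OVCAR3-CTR, -2.43 (-2.70 to -2.18) in OVCAR3-MGPKO and -0.83 (-1.76 to -0.05) in COV318-CTR, but 0.73 (0.45 to 1.01) in COV318-MGP. No member was higher in OCSC in all 4 populations by the same rule, which 1.81% of all genes met. With each population taken as a pair, edgeR's quasi-likelihood test over the 4 pairs called none of the 9 genes and 0 of 18377 genes (0%) at an adjusted p under 0.05, and 1370 genes had an unadjusted p under 0.05. TIMP3 had a log2FC of -1.61 in that fit, lower in 4 of 4 populations, with an unadjusted p of 0.00036 and a Benjamini-Hochberg adjusted p of 0.193, between 0.053 and 0.99999 in the other edgeR fits. DESeq2 called 251 genes in the same design, of the 9 TIMP3 only, with a log2FC of -1.59 and an adjusted p of 0.000577. The 2 populations of a line share their origin, so the 4 pairs are not independent cultures of one kind.

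In OVCAR3-CTR 3 genes were higher in OCSC and 1 lower, against 27.5% of all genes (14.3% higher and 13.2% lower). TIMP1 had a log2FC of 1.45 (0.64 to 2.44), TIMP2 of 1.48 (1.34 to 1.61) and PLAUR of 1.004 (0.57 to 1.48), and TIMP3 was lower. The PLAUR value is at the limit and was under it with CPM scaling (0.93), size factors of the pair (0.98) or a pseudocount of 5 (0.97) or 10 (0.93). In OVCAR3-MGPKO 1 gene was higher and 3 lower, against 19.2% of all genes (8.33% higher and 10.8% lower). MMP9 was higher in OCSC at 2.01 (1.19 to 3.11), on 67 against 12 counts, and MMP2 was lower at -2.22 (-2.98 to -1.60) together with TIMP3 and PLAU. No member was counted as higher in OCSC in both OVCAR3 populations.

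In COV318-CTR, of the 8 genes above the floor, 1 was higher in OCSC and 5 were lower, against 21% of all genes (10.9% higher and 10.1% lower). TIMP2 was higher, with a log2FC of 2.15 (1.98 to 2.34). The lower genes besides TIMP3 were MMP2 at -4.40 (-6.21 to -3.34), MMP7 at -2.33 (-2.49 to -2.17), MMP14 at -1.60 (-1.72 to -1.47) and TIMP1 at -1.82 (-3.28 to -0.80). In COV318-MGP 2 of 8 genes were higher and none lower, against 19.6% of all genes (10.3% higher and 9.36% lower): MMP2 at 1.54 (1.18 to 1.92) and TIMP1 at 1.67 (1.58 to 1.78). Both were lower in OCSC in COV318-CTR. Enzymes and inhibitors thus stood lower together in COV318-CTR OCSC, apart from TIMP2 and from MMP9, which was at the floor.

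**Figure D4:**
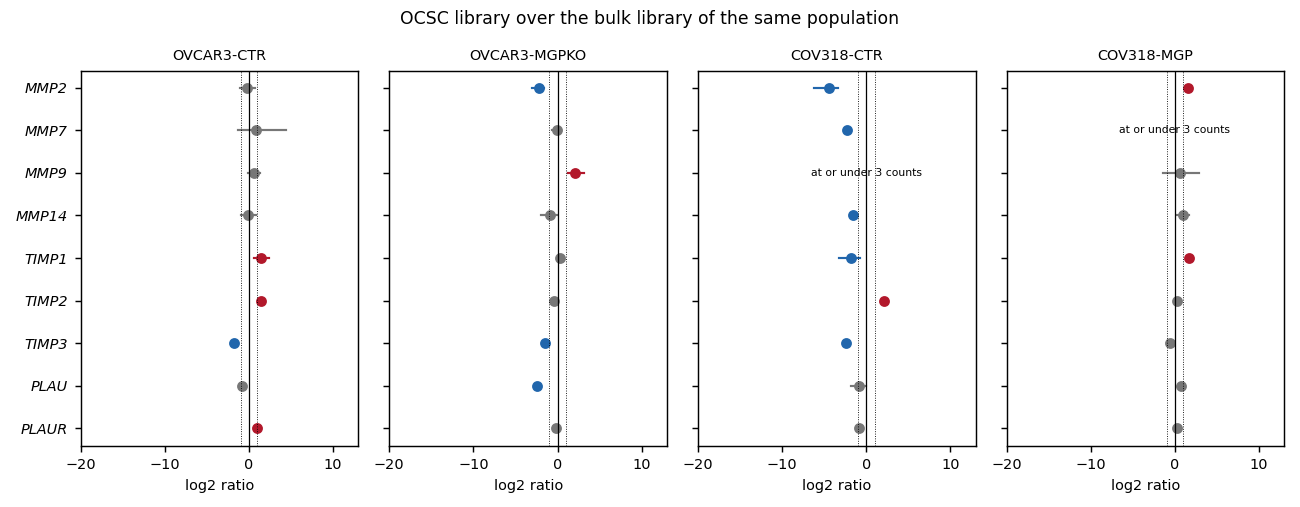
The log2FC of each gene in the OCSC library over the bulk library of the same population, in 4 panels, with bars for the exact 95% interval of counting error and red and blue for a log2FC past 1 in size. TIMP3 lies left of 0 in all 4 panels, and MMP2 and TIMP1 lie on opposite sides in COV318-CTR and COV318-MGP.

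The 2 control lines differed in most of these genes before any manipulation of MGP, as 54.3% of all genes did in bulk and 55.9% in OCSC. In bulk 3 genes were higher in OVCAR3-CTR than in COV318-CTR and 4 lower, where 24.8% and 29.4% of all genes were. MMP7 was 879-fold lower (log2FC -9.37, interval -12.83 to -7.93), on 2 counts in OVCAR3-CTR, and MMP14 was 90.8-fold lower. The MMP7 fold is the ratio of normalized counts without the pseudocount that its log2FC holds. Its 2 counts lie under the floor, so the size of this fold is uncertain. PLAU was 9.01-fold higher and MMP9 at least 21.0-fold higher. In OCSC 6 genes were higher and 2 lower (26.9% and 29% of all genes), the latter again MMP7 (82.6-fold) and MMP14 (31.4-fold), and PLAU was 9.25-fold higher. TIMP2 was 3.73-fold higher in bulk and 2.33-fold higher in OCSC. In both cultures MMP7 and MMP14 were thus higher in COV318-CTR, and MMP9, TIMP2 and PLAU higher in OVCAR3-CTR, MMP9 on 0 to 54 counts. MMP7, MMP9, MMP14 and PLAU also did not overlap between the 4 OVCAR3 libraries and the 2 COV318-CTR libraries, as was the case for 58.7% of all genes. Between the 2 COV318-MGP libraries and the other 6, MMP7 and TIMP1 did not overlap, as did not 35.4% of all genes. For MMP7 the libraries next to this gap, OVCAR3-CTR bulk and COV318-MGP bulk, had 2 and 1 counts. The interval of their ratio (-1.78 to 8.37 as log2) holds 0. Line and passage cannot be told apart in either culture, and in bulk the medium also differed between the lines, whereas OCSC of both grew in the same sphere medium.

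Of 14 other genes of the plasminogen system in the table, 5 were higher and 0 lower in OVCAR3-MGPKO bulk (15.1% and 9% of all genes above the floor), with a median log2FC of 0.69, and 1 was higher and 1 lower in OCSC (9.17% and 5.69% of all genes). In COV318-MGP 4 of 12 above the floor were higher and 7 lower in bulk (24.5% and 26.3% of all genes), and 5 of 14 higher and 7 lower in OCSC (27% and 27.3%). PLAT, the tissue plasminogen activator, had 8 and 174 counts in OVCAR3-CTR bulk and OCSC, 90 and 48 in OVCAR3-MGPKO, 24 and 13 in COV318-CTR, and 6932 and 2609 in COV318-MGP. Its log2FC was 2.97 (2.03 to 4.32) in OVCAR3 bulk, -1.93 (-2.44 to -1.48) in OVCAR3 OCSC, 8.10 (7.63 to 8.85) in COV318 bulk and 7.52 (6.82 to 8.51) in COV318 OCSC. Like PLAU, it was higher in OVCAR3-MGPKO in bulk only and in COV318-MGP in both cultures.

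Among the serine protease inhibitors, SERPINE2 was higher and SPINT1 lower in COV318-MGP in both cultures. SERPINE2, or protease nexin, had 13 and 6 counts in COV318-CTR and 975 and 539 in COV318-MGP, which gave 6.07 (5.48 to 7.17) in bulk and 6.28 (5.30 to 7.89) in OCSC as log2FC. SPINT1, an inhibitor of epithelial serine proteases, was lower in COV318-MGP, at -4.90 (-5.72 to -4.40) in bulk and -5.07 (-6.90 to -4.01) in OCSC, beside the low sums of the epithelial marker list given above.

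Of the other metalloproteases above the floor in COV318-MGP, 6 of 11 were lower and 3 higher in bulk (26.3% and 24.5% of all genes), and 7 of 11 lower and 3 higher in OCSC (27.3% and 27%). MMP10 (stromelysin-2) and MMP1 (interstitial collagenase) were lower, MMP10 by a log2FC of -6.34 (-9.30 to -5.46) in bulk and -4.42 (-5.12 to -3.87) in OCSC and MMP1 by -5.53 (-12.32 to -4.50) and -4.57 (-7.17 to -3.26). MMP16, a membrane-type enzyme related to MMP14, was higher, at 1.87 (1.71 to 2.04) and 1.60 (1.26 to 1.97). In OVCAR3-MGPKO 2 of 8 were higher and 2 lower in bulk (15.1% and 9% of all genes), and 1 of 9 higher and 5 lower in OCSC (9.17% and 5.69%), among them MMP10 at -2.31 (-2.56 to -2.08). In the list of other inhibitors of metalloproteases and related testicans, 0 of 3 above the floor were higher and 1 lower in OVCAR3-MGPKO bulk (15.1% and 9% of all genes), and 2 of 4 higher and 1 lower in OCSC (9.17% and 5.69%). In COV318-MGP 2 of 5 were higher and 2 lower in bulk (24.5% and 26.3%), and 1 higher and 1 lower in OCSC (27% and 27.3%). SPOCK2, a proteoglycan of the testican family that is not itself an established inhibitor of metalloproteases, was lower in OVCAR3-MGPKO, at -2.38 (-2.46 to -2.30) in bulk and -3.86 (-4.13 to -3.62) in OCSC. SPOCK1, of the same family, was higher in OVCAR3-MGPKO OCSC, at 1.05 (1.00273 to 1.09), from 5332 to 11024 normalized counts. RECK, a membrane-anchored inhibitor of several metalloproteases, was higher in COV318-MGP, at 1.14 (0.96 to 1.32) in bulk and 1.72 (1.37 to 2.10) in OCSC.

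Of the cathepsins and kallikreins, 12 of 17 were lower in COV318-MGP in bulk and 12 of 17 in OCSC, where 26.3% and 27.3% of all genes were. The median log2FC was -3.01 in bulk (-2.38 with genes at 0 counts set to their bound) and -1.79 in OCSC. KLK10 and KLK11, secreted serine proteases of epithelia, had 1203 and 1432 counts in COV318-CTR bulk and 2 and 1 in COV318-MGP bulk. In OVCAR3-MGPKO 4 of 17 were higher and 2 lower in bulk, near the 15.1% and 9% of all genes, and 3 higher and 4 lower in OCSC (9.17% and 5.69%), with KLK10 higher in bulk at 1.55 (1.34 to 1.77) and lower in OCSC at -1.26 (-1.48 to -1.06). Of the ADAM and ADAMTS proteases 15 of 26 were higher and 6 lower in COV318-MGP bulk (24.5% and 26.3% of all genes), and 14 of 25 higher and 8 lower in OCSC (27% and 27.3%). In OVCAR3-MGPKO 8 of 20 were higher and 1 lower in bulk (15.1% and 9%), and 3 of 19 higher and 3 lower in OCSC (9.17% and 5.69%). ADAM23 was higher in all 4 comparisons, as were 1.26% of all genes. Its log2FC was 4.20 (2.87 to 6.77) in OVCAR3 bulk, 3.59 (2.80 to 4.81) in OVCAR3 OCSC, 8.34 (7.43 to 12.33) in COV318 bulk and 7.64 (5.89 to 13.68) in COV318 OCSC. Among 11 genes for activation and docking of these proteases, 4 were higher and 5 lower in COV318-MGP bulk (24.5% and 26.3% of all genes) and 6 higher and 2 lower in OCSC (27% and 27.3%). Of the 10 above the floor in OVCAR3, 2 were higher and 1 lower in bulk (15.1% and 9%), and 0 higher and 2 lower in OCSC (9.17% and 5.69%). The integrin subunit ITGB3, a partner of the urokinase receptor, was named for the size of its change. It was lower in all 4 comparisons, at -3.89 (-4.21 to -3.61) and -1.60 (-1.75 to -1.45) in OVCAR3 bulk and OCSC and at -5.67 (-6.11 to -5.33) and -4.28 (-4.92 to -3.76) in COV318. How many of all genes were lower in all 4 was not counted. The proprotein convertases PCSK5 and PCSK6, which cleave precursors of secreted proteins, were higher in COV318-MGP, PCSK6 at least 592-fold in bulk and at least 207-fold in OCSC, against 0 counts in COV318-CTR.

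**Figure D5:**
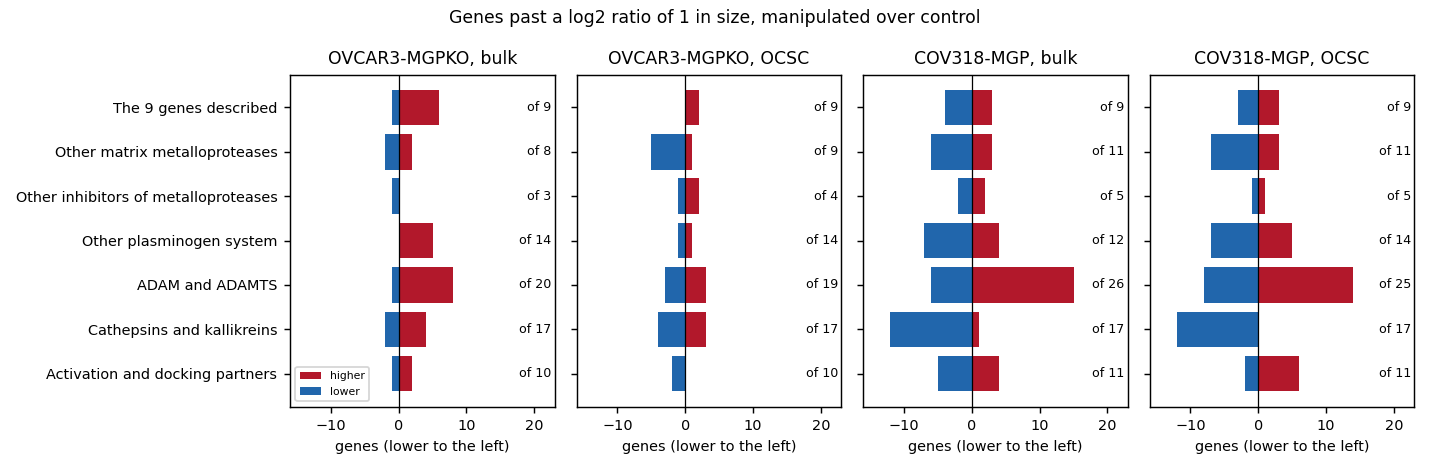
Number of genes past a log2FC of 1 in size in the MGP-manipulated library over its control, higher to the right and lower to the left, for the 9 genes and 6 other protease lists, with the number above the floor at the right of each panel. The COV318-MGP panels hold more genes than the OVCAR3-MGPKO panels in most lists, as 50.8% and 54.2% of all genes passed this size in COV318 against 24.1% and 14.9% in OVCAR3, and cathepsins and kallikreins lie almost wholly to the left in the COV318-MGP panels.

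The patterns of the 9 genes over the 8 libraries were not alike. Likeness was measured as the root mean square (rms) difference of the centred log2 levels of 2 genes, over the 15302 genes that reached 50 normalized counts in some library, as a description with no test. The closest gene to PLAUR was CLSTN3, at an rms difference of 0.148, and to TIMP3 it was MYC, at 0.395, with EGFR at rank 3 (0.488). IL13RA2 was closest to MMP14 (0.402), IGSF10 to TIMP2 (0.360), PITPNM3 to MMP9 (0.417), SCARF2 to PLAU (0.468), PFKFB3 to MMP2 (0.682), TBX1 to TIMP1 (0.711) and PDE6B to MMP7 (0.926). No member was among the 3 genes closest to another. The nearest pair within the list was MMP9 with TIMP2, at 1.15, and MMP7 and MMP14, both high in COV318-CTR, lay 2.39 apart.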

How the data were processed

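The authors sequenced the 8 libraries on an Illumina instrument, and the submitters' processing notes name STAR 2.7.5c, DESeq2 and the genome build hg38. The labels name several library kits for the study; which one served these libraries, the annotation and the strand setting of the counting are not given in the sources used here. The authors deposited a raw read count per gene for each library, and a normalized signal, which is the count divided by a size factor per library. No gene in the table stays under 10 counts throughout, which shows a filter before deposit. All 8 libraries were mapped to their condition from the labels.

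From the counts, size factors (median of ratios) were computed over the 15518 genes above 0 in every library, and the values equalled the deposited normalized ones. The log2FC was computed on log2(normalized count + 1). Exact 95% Clopper-Pearson intervals of the ratio of 2 counts were computed, which cover counting error only, and the floor of 3 counts was 0.0802 to 0.244 CPM in these libraries. Levels per kb used the exon union of GENCODE 44. Single comparisons were not tested, since each condition has 1 library. After the data were seen, OCSC was tested against bulk over the 4 populations with edgeR's quasi-likelihood test (population as block, TMM, filterByExpr, 3 residual degrees of freedom, Benjamini-Hochberg adjustment), with DESeq2 1.42.0, no filter, other scaling, no block and each population left out as alternatives.

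The 9 genes and all lists were chosen with earlier results of these data known, and the pairs of genes set against each other as ratios after their values were seen. Of other protease genes, those named are called genes of each list and direction, taken from the 2 with the largest log2FC among those with at least 50 normalized counts in 1 library and an interval leaving out 0. MMP15 was named after its values were seen. Genes most like a member are the 3 with the smallest rms difference.

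The alternatives were TMM and CPM scaling, size factors of the pair or of the 6 libraries other than COV318-MGP, pseudocounts of 0.5, 5 and 10, the deposited values, a minimum of 10 or of 50 counts, thresholds of 1.5 and 2, and an interval that leaves out 0. A sum over all listed metalloproteases was added after seeing the data. Promoters were read from RefSeq. TMM factors came from edgeR 4.0.16 in R 4.3.3, and all else from Python 3.11.15 (scipy 1.17.1, numpy 2.4.6, pandas 2.3.3) with figures by matplotlib 3.10.9. The functions were tested on simulated data.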

Additional observations from a re-analysis of the deposited data

Results flagged for a closer look

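Some log2FC of MMP2 and TIMP1 of at least 1 in size pointed in opposite directions in 2 settings of the same contrast, each with 1 library a side. None of these differences was tested.

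MMP2 was lower in COV318-MGP than in COV318-CTR in bulk (log2FC -1.41) and higher in OCSC (4.53). From bulk to OCSC, MMP2 was lower in OVCAR3-MGPKO (-2.22) and in COV318-CTR (-4.40) and higher in COV318-MGP (1.54). These values rest partly on the 5 counts of MMP2 in COV318-CTR OCSC.

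TIMP1 was lower in OCSC than in bulk in COV318-CTR (-1.82), on 7 against 73 counts, and higher in OVCAR3-CTR (1.45) and in COV318-MGP (1.67).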

How the results depend on the processing

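The labels number no replicates, and only the test of OCSC against bulk over populations is paired, by population. It called 0 genes, but 15 without a filter on low counts, 251 with DESeq2 and 40 without COV318-MGP, and 0 in the other fits, that without the block included. In these fits the log2FC of MMP7 went from -0.93 to 0.11 without COV318-CTR, and that of PLAUR from 0.02 to -0.070 without the block, -0.29 without OVCAR3-CTR and -0.062 without COV318-MGP. Of 704 log2FC of the 9 genes recomputed with another scaling, source or pseudocount, 675 stayed within their counting interval, 29 moved out of it and 0 changed sign. Of 156 counts of genes, 148 stayed within 1.5 times the reported count. With a threshold of 1.5 or 2, the 7 genes counted in OVCAR3-MGPKO against control in bulk became 4 and 3, and the 4 counted in OCSC against bulk of OVCAR3-CTR became 1 and 0. With a threshold of 2, the 2 counted in OCSC against bulk of COV318-MGP became 0, and the 8 counted between the control lines in OCSC became 5. The 3 opposite genes in bulk became 1 with a threshold of 1.5 or 2. A stricter threshold counts fewer genes by construction. With all 16 metalloproteases in the sum, an alternative chosen after seeing the data, the ratio of TIMPs to metalloproteases in OVCAR3-CTR OCSC went from 27.7 to 0.952. The median over genes of the change in log2FC was up to 0.29 with CPM scaling, in COV318 bulk, and with TMM it was 0.10 there and -0.12 between the COV318-MGP cultures. Low counts, as for MMP9 in COV318 and for MMP7 in OVCAR3-CTR, widen the intervals, and the spread between cultures was not measured.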
